A study of Mus musculus with 6 samples.

Results

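A set of 10 genes on mouse chromosome 11, Ddx5, Smurf2, Gna13, Bptf, Kpna2, Helz, Psmd12, Prkar1a, Map2k6 and Prkca, were examined in FLK1+ mesodermal cells with and without the transcription factor SCL. They were picked by symbol from earlier results of these libraries because they lie in an interval of 7 Mb of mm9 chromosome 11, from 6.64 Mb before to 0.356 Mb after the start of Sox9, in which gene levels were higher in Scl-/- cells. All 10 of these symbols were found among the 14005 genes of the deposited table, and all 10 passed the filter on low values together with 13991 genes in all. The question was whether the higher level in Scl-/- cells had one size for every gene and every differentiation. Because the choice rested on the difference between WT and Scl-/- cells, that difference is described here without a test.

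RNA was sequenced from FLK1+ cells isolated at day 3.5 of embryoid body (EB) differentiation. The WT cells were the J1 embryonic stem (ES) cell line and the other cells an ES cell line in which both copies of Scl (Tal1) are disrupted, so each genotype was 1 line, and loss of SCL and any other difference between the lines cannot be told apart. The labels give the strain as C57Bl/6 X Sv129 for 3 libraries and with Sv130, Sv131 or Sv132 in its place for the others. Each line carries more than 1 of these labels, so they are not read as different strains. Each line gave 3 libraries, numbered 1 to 3, from independent differentiations, and FLK1 was used to isolate the cells with magnetic beads, with no allele or agent besides the Scl disruption named in the labels.

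The libraries held 38623641 to 47621120 reads on the listed genes. Levels are given as CPM, the reads of a gene scaled to the size of its library, in the order of the replicate numbers. For the targeted gene, Tal1, they were 303, 182 and 306 in WT against 9.35, 5.68 and 5.87 in Scl-/- libraries. All 10 markers listed for FLK1+ mesoderm (Kdr, Pdgfra, T, Mixl1, Mesp1, Hand1, Etv2, Lmo2, Tal1 and Gata4) were present, and their summed level ranged from 2572 to 2801 CPM in WT and from 2622 to 3100 CPM in Scl-/- libraries. Markers of other cells moved with the genotype. The 4 of 7 endoderm markers in the table (Sox17, Cer1, Gsc and Hhex) summed to 74.7 to 110.7 CPM in WT and 28.3 to 55.8 CPM in Scl-/- libraries, while the other 3 (Foxa2, Apoa1 and Ttr) were absent. The authors name Sox17 among endothelial genes activated by SCL and Gsc among early mesoderm genes repressed by it, so this sum need not follow endoderm cells. The 4 of 6 blood markers in the table summed to 19.1 to 54.7 CPM in WT and 2.54 to 3.13 CPM in Scl-/- libraries, without Klf1 and Hba-x. The 3 of 5 cardiac muscle markers in the table summed to 9.28 to 16.3 CPM and 19.3 to 37.1 CPM, without Tnnt2 and Myh6. The 2 of 5 neurectoderm markers in the table, Nes and Pax6, summed to 64.5 to 94.8 CPM and 113.8 to 127.0 CPM, without Sox1, Sox3 and Zic1. Pax6 averaged 14.3 CPM, so this sum rests mostly on Nes and need not follow neurectoderm cells. The 7 pluripotency markers overlapped between the groups, with 625.5 to 797.0 CPM in WT and 650.6 to 731.5 CPM in Scl-/- libraries. The part of these markers in the differences that follow was not tested, and in bulk RNA more cells of a type and more RNA per cell cannot be told apart.

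The genes take part in unrelated processes. Ddx5 and Helz encode RNA helicases, Bptf the largest subunit of the NURF chromatin remodeller and Kpna2 an importin alpha that carries proteins into the nucleus. Smurf2 encodes a ubiquitin ligase that limits TGF-beta and BMP signalling, and Psmd12 a lid subunit of the proteasome. Gna13 encodes a G protein alpha subunit upstream of RhoA, Prkar1a a regulatory subunit of protein kinase A, Prkca a protein kinase C and Map2k6 a kinase that activates p38. Sox9, near which they lie, encodes a transcription factor required for cartilage formation. Genes next to each other on a chromosome share its copy number, so that a line with extra copies of a stretch would be expected to express each gene on it at a level higher by one factor, 1.5 for 3 copies against 2 and 2.0 for 4 copies against 2. DNA copy number was not measured in these libraries, and its part in the values was not tested.

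On mm9 the genes start between 2.38 and 6.00 Mb before the start of Sox9 (chromosome 11, 112643538 to 112649074). In order along the chromosome, Ddx5 (ENSMUSG00000020719) spans 106641669 to 106650499, Smurf2 (ENSMUSG00000018363) 106681380 to 106782029, Kpna2 (ENSMUSG00000018362) 106849943 to 106860855, Bptf (ENSMUSG00000040481) 106894395 to 106993441, Psmd12 (ENSMUSG00000020720) 107340798 to 107365676, Helz (ENSMUSG00000020721) 107409244 to 107555140, Prkca (ENSMUSG00000050965) 107794701 to 108205242, Gna13 (ENSMUSG00000020611) 109224145 to 109262683, Prkar1a (ENSMUSG00000020612) 109510719 to 109530970 and Map2k6 (ENSMUSG00000020623) 110260436 to 110386836. Ddx5, Smurf2, Kpna2, Bptf and Prkca are on the minus strand and the other genes on the plus strand, and all 10 are protein coding. A tested antisense gene, Gm11696, shares 151 exonic bases with Gna13, and 2 microRNA genes on the same strand, one of them Mir3064, lie within Ddx5 exons. The counting is not stated to use strand, so that reads of these genes and of Gna13 and Ddx5 cannot be told apart at the shared bases.

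The promoter sequences show how unlike these neighbours are. Given here are the 250 bases before the annotated start of Map2k6, Smurf2 and Helz, whose levels differed most between the groups, and of Prkca, whose level differed least, taken from the mm9 genome at GENCODE gene starts and read 5′ to 3′ on the strand of the gene, with capitals for every CG dinucleotide.
Map2k6, chr11:110260186-110260435 (+ strand): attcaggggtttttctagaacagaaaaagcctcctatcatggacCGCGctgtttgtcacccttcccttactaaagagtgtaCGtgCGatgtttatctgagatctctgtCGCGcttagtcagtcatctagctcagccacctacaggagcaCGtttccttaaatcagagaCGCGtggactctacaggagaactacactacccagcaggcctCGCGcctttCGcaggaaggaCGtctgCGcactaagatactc
Smurf2, chr11:106782030-106782279 (- strand): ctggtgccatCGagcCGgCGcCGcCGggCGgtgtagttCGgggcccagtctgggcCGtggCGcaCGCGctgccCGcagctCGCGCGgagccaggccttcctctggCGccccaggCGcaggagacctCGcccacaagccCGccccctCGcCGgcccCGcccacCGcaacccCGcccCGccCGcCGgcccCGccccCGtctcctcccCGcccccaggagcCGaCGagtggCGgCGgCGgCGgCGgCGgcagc
Helz, chr11:107408994-107409243 (+ strand): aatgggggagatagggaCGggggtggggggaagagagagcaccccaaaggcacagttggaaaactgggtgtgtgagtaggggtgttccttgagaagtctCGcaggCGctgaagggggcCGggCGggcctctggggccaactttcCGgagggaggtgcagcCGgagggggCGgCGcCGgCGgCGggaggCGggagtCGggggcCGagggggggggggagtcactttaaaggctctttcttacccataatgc
Prkca, chr11:108205243-108205492 (- strand): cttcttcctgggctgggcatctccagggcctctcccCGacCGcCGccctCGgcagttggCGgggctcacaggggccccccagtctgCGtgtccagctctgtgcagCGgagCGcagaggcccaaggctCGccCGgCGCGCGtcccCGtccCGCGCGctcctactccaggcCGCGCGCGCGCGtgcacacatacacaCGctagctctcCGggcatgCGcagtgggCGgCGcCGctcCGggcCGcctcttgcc
The Smurf2 window holds 38 CG dinucleotides and the Prkca window 31, while the Map2k6 and Helz windows hold 14 and 15. Over the windows of all 10 genes the count ran from 5 in Prkar1a to 38 in Smurf2 and Gna13, with a median of 19, against a median of 15 (interquartile range 8 to 22) over 12513 protein-coding genes tested. The letters CAGATG, an E-box of the kind SCL complexes bind, were looked for on both strands and were in 0 of the 10 windows, against 10.2% of all windows. The GATA-factor letters AGATAA were in 2 of the 10, those of Prkar1a and Map2k6, against 5.95% of all windows, and the motifs share the letters AGAT. A match is a description of the window, and SCL binding was not analysed here.

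In WT cells the genes spanned a wide range of levels. Per kilobase of annotated exon, Ddx5 was highest with 65.3 ± 4.95 CPM per kb (SD, n = 3), followed by Psmd12 with 45.3 ± 3.78, Prkar1a with 35.7 ± 0.72 and Kpna2 with 28.2 ± 1.11 CPM per kb. Bptf with 14.97 ± 2.48 and Gna13 with 13.01 ± 0.98 CPM per kb did not differ beyond their spread, nor did Helz with 8.82 ± 1.64 and Smurf2 with 8.49 ± 1.06 CPM per kb. Map2k6 had 5.76 ± 1.93 CPM per kb and Prkca, lowest of all, 0.407 ± 0.0862 CPM per kb. These 2 were also the lowest of the 10 by mean CPM. Prkca stood above 16.8% and Map2k6 above 52.3% of the tested genes, and the other 8 above 76.8% to 98.8%. Among the WT libraries alone, which share a genotype, the SD of log2(CPM + 0.5) was 0.443 for Map2k6, 0.287 for Prkca and 0.281 for Helz, and 0.0291 for Prkar1a. The median over the 10 genes was 0.153, against 0.165 over the 11640 tested genes averaging at least 5.18 CPM, the mean of Prkca.

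**Figure D1:**
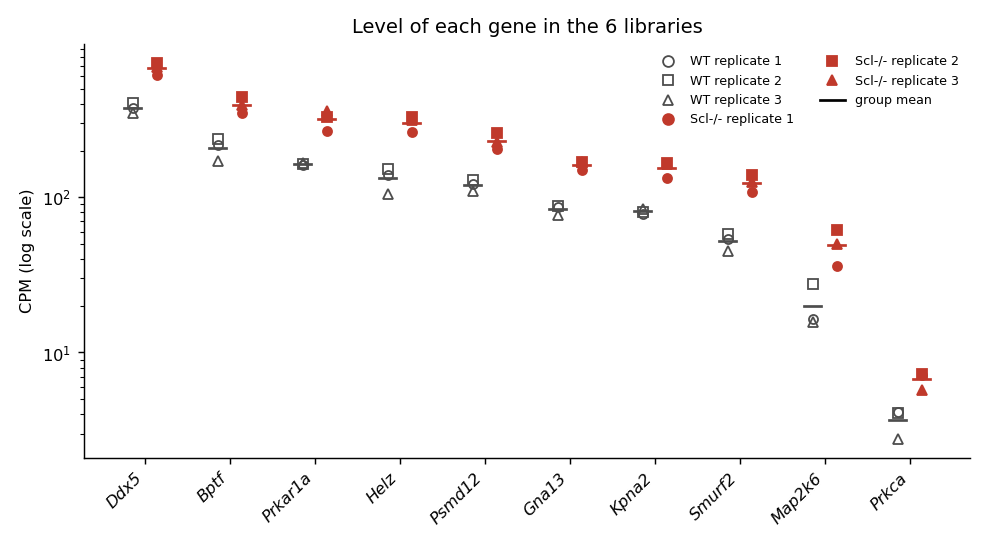
CPM (log scale) of each gene in the 3 WT libraries (open grey symbols) and the 3 Scl-/- libraries (filled red symbols), with bars at the group means and symbol shape for the replicate number. Every red symbol of a gene lies above every grey symbol of it, from Ddx5 at the top (WT mean 377 CPM) to Prkca at the bottom (WT mean 3.66 CPM).

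Each gene had a higher level in every Scl-/- library than in any WT library. Groups that did not overlap in this direction were found for 11% of all tested genes, and for these 10 genes the choice itself was made on that contrast. Among the RNA and nuclear genes, Ddx5 stood at 377, 406 and 349 CPM in WT against 612, 735 and 687 CPM in Scl-/- libraries, a 1.80-fold higher mean. Helz had 139.9, 153 and 105.2 CPM in WT and 264, 330.4 and 312 CPM in Scl-/- libraries, a 2.28-fold higher mean, with WT replicate 3 well below the other WT libraries. Bptf had 216, 238 and 170.5 CPM in WT and 350.6, 439.5 and 390.1 CPM in Scl-/- libraries, 1.89-fold higher on average. In all of these genes the lowest Scl-/- library was replicate 1 and the lowest WT library replicate 3. Kpna2 had 78.5, 79.9 and 84.6 CPM in WT and 134, 166.5 and 163.5 CPM in Scl-/- libraries, 1.91-fold higher, and was the steadiest of these 4 among the WT libraries.

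Of the protein turnover genes, Smurf2 had 54.2, 57.7 and 45.02 CPM in WT and 107.6, 139.8 and 126.0 CPM in Scl-/- libraries, a 2.38-fold higher mean. Psmd12 had 121.5, 129.1 and 109.3 CPM in WT and 204.8, 260.1 and 227.1 CPM in Scl-/- libraries, a 1.92-fold higher mean. The lowest Scl-/- value of Smurf2, 107.6 CPM, was thus far above its highest WT value of 57.7 CPM, a wider gap in proportion than that of Psmd12 between 204.8 and 129.1 CPM.

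Of the signalling genes, Gna13 had 86.8, 87.5 and 76.3 CPM in WT and 148.9, 168.5 and 169.3 CPM in Scl-/- libraries, 1.94-fold higher. Prkar1a had 160.8, 164.6 and 167.3 CPM in WT and 267.9, 330.6 and 360.3 CPM in Scl-/- libraries, 1.95-fold higher. For these genes the WT libraries lay close together and Scl-/- replicate 1 stood below the other Scl-/- libraries. Map2k6 had 16.4, 27.5 and 15.6 CPM in WT and 36.0, 61.4 and 49.9 CPM in Scl-/- libraries, 2.48-fold higher, with replicate 2 highest in both groups. Prkca had 4.16, 4.05 and 2.77 CPM in WT and 7.17, 7.23 and 5.71 CPM in Scl-/- libraries, 1.83-fold higher, and rested on 114 to 350 reads a library, against at least 644 for every other gene. It was the single gene of the 10 whose lowest Scl-/- library was not replicate 1.

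Over the 10 genes the mean in Scl-/- cells was 1.80 to 2.48 times that in WT cells, with a median of 1.93. All 10 were past the 1.5 of 3 copies against 2, and 3 were past the 2.0 of 4 copies against 2. On the log2(CPM + 0.5) scale, on which the remaining values are given and on which low genes are understated, the difference Scl-/- minus WT had a median of 0.94 and ran from 0.80 for Prkca to 1.30 for Map2k6. A gene was called where limma, fitted to all genes, gave a Benjamini-Hochberg adjusted p under 0.05 and the difference exceeded 0.48 in size. By this rule 8 of the 10 genes were called higher in Scl-/- cells, beside 0.793% of all tested genes. Map2k6 and Prkca were not called. With the replicate number as a block all 10 were called, beside 6.04% of all tested genes. Since the genes were chosen on this contrast, nothing is read from these counts. Without WT replicate 1 and without the block, 0 of the 10 were called, and 44 genes in all.

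The values were spread over a range of 0.50. How far genes with 1 common size would spread was not measured, so whether the genes had 1 size was not tested. Map2k6 (1.30), Smurf2 (1.24) and Helz (1.20) lay together above the other 7, which ran from 0.80 to 0.95, namely Prkca (0.80), Ddx5 (0.84), Kpna2 (0.92), Bptf (0.92), Psmd12 (0.94), Prkar1a (0.95) and Gna13 (0.95). The gap between these sets was 0.24, and the next largest gap between neighbouring values was 0.08. Standard errors with the replicate block were 0.09 to 0.12 in the upper and 0.07 to 0.13 in the lower set, whose range was 0.15. They include variation over the pairs that the genes share, so they do not measure how far genes differ from each other. Of the 21 pairings of genes within the lower set, 7 kept the same order in all pairs. The split was seen in the values and was not tested. Unlisted neighbours filled the gap: of the 20 other genes tested between the start of Ddx5 and the end of Map2k6, 9 had differences inside it, among them Axin2 (1.18), Cep95 (1.14) and Amz2 (1.11), the latter pair named after their values were seen. The range over all 10 genes became 0.75 without Scl-/- replicate 1. In the replicate 1 pair the lower set ran from 0.70 to 0.78 and the upper set from 0.91 to 1.12. In the replicate 2 pair they ran from 0.76 to 1.05 and from 1.11 to 1.27, and in the replicate 3 pair from 0.93 to 1.19 and from 1.48 to 1.64. The sets were cut on the mean of these same pairs, so that their order within a pair is no independent support for the cut. Counting error was smaller than this spread. From the reads, the standard error of the mean of the 3 pairs was 0.0083 for Ddx5, 0.0355 for Map2k6 and 0.0852 for Prkca, and it covers counting error only.

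**Figure D2:**
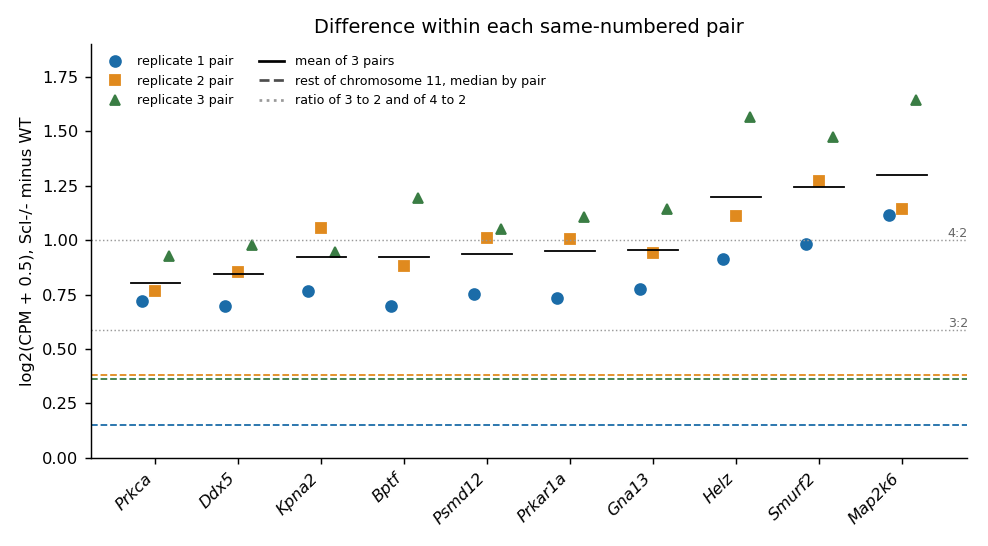
Difference in log2(CPM + 0.5), Scl-/- minus WT, within each same-numbered pair (symbols) and its mean (black bars) for the 10 genes in order of the mean. Dashed lines give the median of chromosome 11 outside the interval in each pair, and dotted lines the log2 of the ratios 3 to 2 (0.58) and 4 to 2 (1.00). Helz, Smurf2 and Map2k6 stand above the other genes in every pair, and the replicate 1 symbol is lowest for every gene.

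The size also varied over the pairs. The median over the 10 genes was 0.76 in the replicate 1 pair, 1.01 in the replicate 2 pair and 1.12 in the replicate 3 pair. The replicate 1 pair gave the smallest difference for 10 of 10 genes and the replicate 3 pair the largest for 9 of 10, the exception being Kpna2 with 0.77, 1.05 and 0.95. Helz moved most between pairs, with 0.91, 1.11 and 1.57, and Prkca least, with 0.72, 0.76 and 0.93. Of the sum of squares of the 30 differences about their mean, 46.1% lay between genes, 42.6% between pairs and 11.2% in the remainder, whose SD was 0.10. This is a description, since the genes of a pair share their libraries.

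The rest of chromosome 11 also varied over the pairs. The 1164 tested genes of chromosome 11 outside the interval had medians of 0.15, 0.38 and 0.36 in pairs 1 to 3, while the 11479 tested genes outside chromosomes 1, 11, X and Y had medians of 0.021, 0.0032 and -0.012. Relative to the rest of chromosome 11 in the same pair, a setting chosen after the data were seen, the medians of the 10 genes were 0.61, 0.63 and 0.76. They then spanned 0.16, against 0.37 without this subtraction. One value per pair was subtracted from every gene, which leaves the range between genes as it is by construction. Against this level Map2k6 stood at 1.00, Smurf2 at 0.94 and Helz at 0.90, and the other 7 between 0.51 and 0.66. The ratios of copy numbers given above take 2 copies as their base. They are not set beside these relative values, because the rest of chromosome 11 itself lay above the genes outside chromosomes 1, 11, X and Y. By library, the median of the 10 genes lay 0.80, 1.06 and 1.01 above the WT mean in Scl-/- replicates 1 to 3, and that of the rest of chromosome 11 lay 0.12, 0.38 and 0.40 above it. Scl-/- replicate 1 was thus lowest in both. In WT replicates 1 to 3 the median of the 10 genes lay at 0.040, 0.13 and -0.17. That of the rest of chromosome 11 lay at -0.021, -0.030 and 0.057, so the order of the WT libraries was not shared. What part the state of the chromosome in each library has in these values was not tested.

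**Figure D3:**
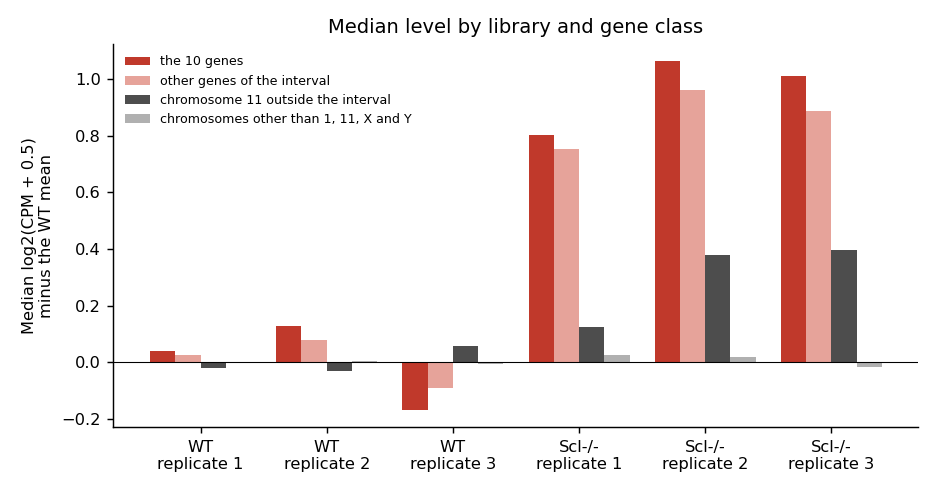
Median of log2(CPM + 0.5) minus the mean of the WT libraries, by library, for the 10 genes, the other 37 tested genes of the interval, chromosome 11 outside the interval and the chromosomes other than 1, 11, X and Y. In Scl-/- replicates 1 to 3 the bars of the 10 genes reach 0.80, 1.06 and 1.01 and those of the rest of chromosome 11 reach 0.12, 0.38 and 0.40, while the bars of the other chromosomes stay near 0.

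Most unlisted neighbours had like values. Between the start of Ddx5 and the end of Map2k6, 3.75 Mb apart, 30 genes were tested, and 29 of them were higher in Scl-/- cells in each pair, beside 29.8% of all tested genes. The 29 include the 10 chosen genes, and the stretch itself was picked on this contrast. The count is therefore a description and no support. The 20 that are not among the 10 had a median difference of 1.07, from -0.05 for Gm11669, at a mean of 3.13 CPM in WT, to 1.34. The highest was Gm25994, a microRNA gene within Ddx5 exons. Cep112 and Arsg, at WT means of 8.70 and 3.84 CPM, had 0.42 each, and Gm11715 and Gm11696 had 0.77 each, also below all 10 genes. Nol11, which acts in ribosome production and lies between Bptf and Psmd12, had 0.78, 0.88 and 0.91 in pairs 1 to 3. Axin2, a target and inhibitor of WNT signalling, had 1.15, 1.24 and 1.15. Of the other 21 genes of the interval averaging 10 CPM or more, the highest differences were those of Sox9 (2.03), Pitpnc1 (1.26) and Axin2 (1.18), and the lowest those of Psmc5 (0.18), Limd2 (0.21) and Ftsj3 (0.24). Sox9 had 10.8, 20.4 and 9.76 CPM in WT and 51.3, 65.5 and 47.96 CPM in Scl-/- libraries, and its differences of 2.20, 1.66 and 2.24 lay above those of all 10 genes in every pair, in an order of the pairs unlike theirs.

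The higher values began close to the first genes. Past the last they fell from Cog1 on, with some higher values further along. Smarcd2, which ends at 106134286, had a difference of 0.44, and Psmc5 and Ftsj3 just before it had 0.18 and 0.24, near the rest of the chromosome. Ern1, which starts at 106255964, had 0.94 and Tex2 0.99. Between Smarcd2 and Ddx5 also lie Icam2 and Pecam1, both adhesion genes of endothelium and blood, chosen for mention after their values were seen. Pecam1 had 12.6, 7.84 and 16.4 CPM in WT and 5.27, 2.37 and 8.10 CPM in Scl-/- libraries, a difference of -1.23, and Icam2 had a difference of -1.08 at a WT mean of 2.18 CPM. Not all genes inside the interval were therefore higher. At the other end no gene was tested over the 2.26 Mb from Map2k6 to Sox9. The last gene starting inside the interval, 2610035D17Rik, had 1.26 at a WT mean of 1.16 CPM, and the first outside, Slc39a11, had 0.75. Past it, among genes averaging 10 CPM or more, Cog1 had 0.36, Fam104a 0.33 and D11Wsu47e 0.43. The median of the chromosome outside the interval was 0.30. Next came Cdc42ep4 with 0.23, Sdk2 with -0.24 and Rpl38 with 0.24, and then Ttyh2 with 0.90 and Gprc5c with 0.98. Lower values thus came first past Slc39a11, and higher values returned further along.

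**Figure D4:**
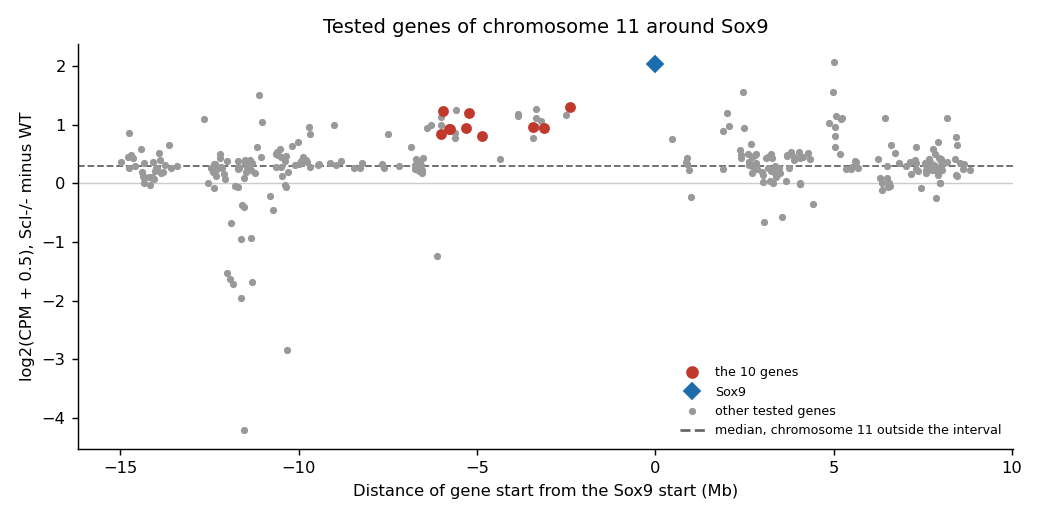
Difference in log2(CPM + 0.5), Scl-/- minus WT, of tested genes of chromosome 11 averaging 5 CPM or more against the distance of their start from the Sox9 start in Mb. The 10 genes (red) lie from 0.80 to 1.30 and Sox9 (blue) at 2.03, above the dashed median of 0.30 of the chromosome outside the interval.

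How the spread among the 10 genes compared with that among other genes depended on the measure and on the genes. The interquartile range of the difference was 0.21 over the 10 genes, 0.76 over the other 37 tested genes of the interval, 0.24 over 970 genes of chromosome 11 outside the interval and 0.24 over 9569 genes outside chromosomes 1, 11, X and Y, both of these sets outside the interval with at least the mean level of Prkca. The SD was 0.17 over the 10 genes, 0.63 over the other genes of the interval, and 0.51 and 0.37 over the sets outside it. The 10 genes were chosen for a higher level in this same contrast, which leaves out low and negative differences and narrows their spread. The genes of the other sets were not picked singly in this way, so nothing about 1 common size is read from the comparison. A difference as large as the 0.80 of Prkca was reached by 5.41% of the chromosome 11 genes outside the interval, by 1.76% of the genes outside chromosomes 1, 11, X and Y and by 2.28% of all tested genes. The genes most like the 10 in pattern, by Pearson's r over the 6 libraries with their mean log2(CPM + 0.5), were 1700064E03Rik (0.996), Mir3064 (0.995), Zrsr1 (0.994), Nol11 (0.993) and Slc7a6 (0.992), of 10213 genes averaging 10 CPM or more. The first 4 of these lie on chromosome 11, as do 21 of the 50 most alike genes, against 8.63% of the genes compared. All of these share the same libraries, and Mir3064 shares its bases with Ddx5. The r largely follows the step from WT to Scl-/- libraries on which the 10 genes were chosen. Chromosome 11 outside the interval was itself higher in Scl-/- cells (median 0.30), so a larger share of its genes follows from the choice and is no separate support.

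Genes that work with the 10 were listed as their partners. Of 63 listed partner genes (complex subunits, paralogs and pathway members), 60 were tested. Their median difference was -0.04, beside 0.009 over all tested genes. The 0.80 of Prkca was reached by 0 of the 60, beside 2.28% of all tested genes. The 10 genes, unlike the partners, were chosen on this contrast, so their place above the partners largely follows from the choice. Without the replicate block 1 was called, beside 2.36% of all tested genes, and with it 7 were called, 1 higher and 6 lower, beside 12.6% of all tested genes, 6.04% higher and 6.6% lower. The 16 of 17 partners of Psmd12 in the regulatory particle of the proteasome that were not called lay between -0.28 and 0.18. Psmd1 was called with the block alone, at 490 ± 44.8 CPM in WT against 347 ± 48.3 CPM in Scl-/- cells (SD, n = 3), a difference of -0.50 (adjusted p = 0.0994 without and 0.00159 with the block by limma). It lies on chromosome 1, whose 789 tested genes had a median of -0.29.

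Ddx17, the close paralog of Ddx5 on chromosome 15, fell in Scl-/- cells, from 656 ± 28.5 CPM (SD, n = 3) to 425 ± 29.1 CPM (SD, n = 3), a difference of -0.63 (adjusted p = 0.0193 without and 9.97e-04 with the block by limma). It was lower in each pair, with -0.46, -0.64 and -0.78, and was not called without the block when WT replicate 1 or 3 or Scl-/- replicate 2 or 3 was left out. Gna12, the paralog of Gna13, differed by -0.65 (adjusted p = 0.101 without and 7.61e-04 with the block by limma), and Arhgef12, which links both to RhoA, by -0.58 (adjusted p = 0.0895 and 7.7e-04). Prkar2b, another regulatory subunit of protein kinase A, averaged 81.6 ± 29.2 CPM in WT against 23.8 ± 10.7 CPM in Scl-/- cells (SD, n = 3), a difference of -1.77 (adjusted p = 0.0575 and 1.48e-04 by limma), opposite in sign to Prkar1a. Of the SMAD genes listed for Smurf2, Smad1 differed by 0.51 (adjusted p = 0.301 and 0.00205 by limma) and Smad6 by -0.53 (adjusted p = 0.494 and 0.0266). The 6 called partners other than Ddx17 passed with the block alone. No listed partner of Bptf, Kpna2, Prkca or Map2k6 was called.

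The 6 partners on chromosome 11 were all higher in Scl-/- cells on average, from 0.03 for Psmd11 to 0.46 for Map2k3, with 0.12 for Psmd3, 0.18 for Psmc5, 0.20 for Kpnb1 and 0.21 for Map2k4 between them. Their median was 0.19, near the 0.30 of the chromosome outside the interval, and none was called. In the replicate 1 pair 5 of the 6 had a difference below 0, the exception being Map2k3 with 0.28. Psmc5 was the single partner inside the interval.

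**Figure D5:**
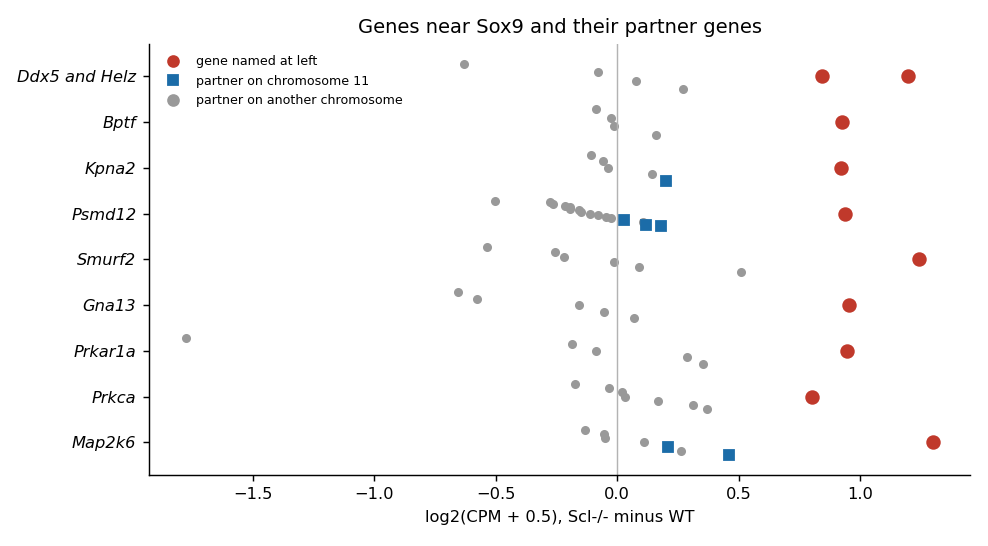
Difference in log2(CPM + 0.5), Scl-/- minus WT, of each of the 10 genes (red) and of the partner genes listed for it, with partners on chromosome 11 as blue squares and those on other chromosomes in grey. The red symbols lie from 0.80 to 1.30, to the right of all 60 partners, whose highest value is 0.51. The 10 genes, unlike the partners, were chosen for a higher level in this contrast.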

How the data were processed

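RNA libraries of FLK1+ cells from day 3.5 EBs numbered 3 per line. The authors mapped reads with TopHat 2.0.8b on mm9, removed duplicate read pairs, kept reads of mapq above 15 with SAMtools 0.1.19 and deposited CPM values normalised with edgeR's TMM method. The counting tool and annotation are not given in the sources used here. Removing duplicates can limit highly expressed genes such as Ddx5. Each column was a whole multiple of 1 step (100% of values, within 0.01 reads), which gave the reads per gene used for counting error; 3 reads correspond to 0.0615 to 0.0784 CPM. The values did not meet the criterion set for recovered reads, so no count model was run.

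Genes reaching 0.5 CPM in 3 or more libraries were fitted with limma 3.58.1 in R 4.3.3 on log2(CPM + 0.5), with an intensity trend and no term but condition. Benjamini-Hochberg adjustment covered 13991 genes. The script was tested on simulated data. Same-numbered libraries were treated as pairs: deviations from the group means correlated across genes by 0.59, 0.76 and 0.75 within pairs 1 to 3, and the design names independent differentiations. Complete pairs leave each log2 difference as it is. Positions, exon lengths and promoter windows come from the GENCODE annotation of mm9, which held all 14005 genes by identifier. Alternatives were other pseudocounts, filters and scalings, no intensity trend, no fold threshold, the replicate block and each library left out, with the same 13991 genes. The 10 genes and the lists were chosen with earlier results of these data known. Named besides the 10 were Tal1, Sox9 and the 3 highest and 3 lowest other genes of the interval with a mean of at least 10 CPM. Also named were partner genes called or on chromosome 11, and the 5 genes most alike in pattern. Border genes, Nol11, Gm11669, Gm25994, Cep112, Arsg, Gm11715, Gm11696, Pecam1 and Icam2 were named after their values were seen.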

Additional observations from a re-analysis of the deposited data

How the results depend on the processing

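The median of the 10 genes (0.94) stayed within the spread over pairs with pseudocounts of 0.1 and 1, median-ratio rescaling, centring on genes outside chromosomes 1, 11, X and Y, and each library left out (0.89 to 1.02), and was 0.64 relative to the rest of chromosome 11, an alternative added after the data were seen. The same alternative took the range over pairs of the median from 0.37 to 0.16. The range between genes, 0.50, was 0.41 to 0.75 with each library left out, widest without Scl-/- replicate 1, and the cause was not tested. All 110 values of single genes under these alternatives were above 0, from 0.64 to 1.56 with a library left out.

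Called genes over all genes numbered 330 without and 1768 with the replicate block, and 44 to 384 with each library left out, the lowest without WT replicate 1. Of the 10 genes 8 were called, and 0 to 9 with a library left out, 0 without WT replicate 1 and 5 without Scl-/- replicate 2. Of the partner genes 1 was called, 7 with the block and 0 to 3 with a library left out, the 0 arising without WT replicate 1 or 3 or Scl-/- replicate 2 or 3. Depth limited Prkca most, at 114 to 350 reads a library. The block left every difference as it was and changed no direction.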

Other observations

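Further along chromosome 11, a second group of neighbours also had values near those of the 10 genes. The 12 tested genes from Tnrc6c to Dnah17 (117515603 to 117990533 of mm9) had a median log2 difference of 1.10, from 0.51 for Socs3 to 2.06 for Tmc8, and 11 of the 12 were higher in Scl-/- cells in each pair. Their medians were 1.00, 1.13 and 1.21 in pairs 1 to 3, so that here too the replicate 1 pair was lowest. The group was noticed in the values and was not tested.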
